A study of Mus musculus with 7 samples.

Results

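The glycolysis genes described here were 32 genes named by symbol: glucose transporters, the enzymes that carry glucose to pyruvate and lactate, the enzymes that set fructose 2,6-bisphosphate, lactate exporters, and pyruvate dehydrogenase kinases. They were followed in thymocyte barcodes, which carried at most 1 UMI (unique molecular identifier, the tag of a single captured transcript molecule) of the B cell genes Cd79a, Cd79b and Ms4a1 together. All 32 symbols were among the 32286 features of the count matrices. Of these, 23 reached a mean of 5 CPM (the UMIs of a gene per 1000000 UMIs of a library) over the 7 libraries, as did 9101 of all features. Ratios are given for those 23, and the 9 that fell under that mean are accounted for by their levels.

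Glycolysis turns glucose into pyruvate with a small yield of ATP and supplies intermediates for nucleotide, serine and lipid synthesis. Dividing lymphocytes are known to run it at a high rate even where oxygen is plentiful, and to pass much of the pyruvate to lactate, which leaves through monocarboxylate transporters. Most steps are served by several isozymes, so that a cell can change which gene supplies an activity as well as how much of it there is, while pyruvate dehydrogenase kinases hold pyruvate back from the mitochondrion. In the thymus, precursors that pass selection on a receptor enlarge and divide, and those awaiting it are small and mostly at rest.

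The 7 libraries came from sorted mouse thymocytes at the double-negative stage, which lacks CD4 and CD8, with 1 library per group and 500 splenic B cells spiked into each as a standard. WT C57BL/6 thymi from mice aged 6 to 8 weeks were pooled and rid of CD4+ and CD8+ cells with beads, and gave WT DN3a (before selection), WT DN3b γδ− and WT DN4 γδ− (selected on the pre-TCR), and WT DN3b γδ+ and WT DN4 γδ+ (with a surface γδ TCR). The last 4 are also written γδ− or γδ+ DN3b and DN4. Mice of the genotype Lat-/-TCRd-H2BEGFP, on the same background, lacked the TCR signalling adaptor LAT in all cells and carried a fluorescent reporter in Trdc that the WT mice did not have. They gave Lat-KO DN3 γδ− and Lat-KO DN3 γδint, sorted without and with an intermediate amount of γδ TCR on the surface. The Lat-KO cells were sorted from total thymocytes, without the bead step used for WT. Effects of LAT loss, of the reporter and of this preparation cannot be told apart. CD71, the transferrin receptor that growing cells raise, was used in the sort to part DN3b γδ− from DN3a and to define DN4 γδ−, so that growth state was itself selected. Nothing states separate animals behind any library, and no difference between groups was tested. The 95% intervals cover counting error only. A gene is called higher or lower in a comparison when its level differed by at least 2-fold, which is 1 on the log2 scale.

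Lat stood at 648, 468, 357, 383 and 399 CPM in the 5 WT libraries, in the order given, and at 4.83 CPM in Lat-KO DN3 γδ− and 0.899 CPM in Lat-KO DN3 γδint. The thymocyte barcodes numbered 5274 to 18515 per library and 71081 in all, with medians of 5737.5 to 18506 UMIs. Libraries shared 7 to 68 barcode sequences, at most 0.660% of the smaller library. The summed level of 10 T cell markers was between 3702 and 11215 CPM, and that of 10 B cell markers between 107 and 284 CPM. The 5 erythroid markers summed to 0.167 CPM in WT DN3a and 169.8 CPM in WT DN4 γδ−, with 1.53 to 35.7 CPM elsewhere, and the 7 myeloid markers to 101 to 195 CPM, most of it Cst3. Their part in the results was not tested, and leaving out the barcodes with erythroid or myeloid UMIs is among the alternatives given at the end.

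Among the genes that the results turn on, Ldha and Ldhb encode the A and B subunits of lactate dehydrogenase and moved in opposite directions from WT DN3a to the selected WT libraries, while Pgk1 and Pgam1 moved with Ldha. The 250 bases before their RefSeq starts (GRCm38.p6) are shown. Capitals mark CACGTG, the E-box that MYC is known to bind, or ACGTG on either strand. ACGTG is a form of the core letters that HIF-1 is known to bind. Every CACGTG also holds ACGTG. The Ldha stretch is chr7:46845554-46845803 on the plus strand, that of Pgk1 chrX:106186850-106187099 on the plus strand, that of Pgam1 chr19:41911621-41911870 on the plus strand, and that of Ldhb chr6:142507958-142508207 on the minus strand. None of the 4 overlapped an exon of the gene annotation used.
Ldha: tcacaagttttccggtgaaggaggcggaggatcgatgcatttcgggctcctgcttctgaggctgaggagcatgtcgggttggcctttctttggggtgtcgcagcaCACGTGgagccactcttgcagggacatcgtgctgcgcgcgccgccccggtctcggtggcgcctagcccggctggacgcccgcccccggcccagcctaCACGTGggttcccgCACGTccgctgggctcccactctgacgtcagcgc
Pgk1: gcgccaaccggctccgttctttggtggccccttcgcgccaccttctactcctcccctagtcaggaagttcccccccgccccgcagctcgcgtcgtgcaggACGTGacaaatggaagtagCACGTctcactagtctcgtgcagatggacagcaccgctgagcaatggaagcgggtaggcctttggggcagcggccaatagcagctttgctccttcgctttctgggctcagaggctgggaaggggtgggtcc
Pgam1: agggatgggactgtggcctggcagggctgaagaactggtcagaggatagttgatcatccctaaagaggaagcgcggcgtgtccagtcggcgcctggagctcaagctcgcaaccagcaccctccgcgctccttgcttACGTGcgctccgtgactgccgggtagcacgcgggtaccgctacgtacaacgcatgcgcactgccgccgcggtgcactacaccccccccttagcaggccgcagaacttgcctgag
Ldhb: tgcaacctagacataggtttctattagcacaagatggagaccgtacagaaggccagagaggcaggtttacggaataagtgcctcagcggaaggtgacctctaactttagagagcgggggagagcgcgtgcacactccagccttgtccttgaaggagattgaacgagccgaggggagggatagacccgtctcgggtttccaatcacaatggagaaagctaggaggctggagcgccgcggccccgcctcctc
Ldha held CACGTG at 145 and at 48 bases before its start and ACGTG on the other strand at 34. Pgk1 held ACGTG at 150 and 131 and Pgam1 at 114, and neither set of letters was in the Ldhb stretch. GCGTG, another form of the HIF-1 core, was not searched for, and it occurs unmarked in the Pgam1 and Ldhb stretches. Over windows from 250 bases before to 50 after a start, CACGTG was in those of 6 of the 31 glycolysis genes with a window (Pfkm, Pfkfb2, Pfkfb3, Ldha, Slc16a1 and Pdk2), and in 8.09% of 27025 gene symbols. ACGTG was in those of 18 of the 31, against 21.8% of symbols. These matches describe letters in a window and were not tested against the levels.

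The levels of all 32 genes together were lowest in WT DN3a and higher in each of the other 6 libraries. They summed to 2530.1 CPM in WT DN3a, 5273 and 4237 in γδ− DN3b and DN4, 4861 and 3118 in γδ+ DN3b and DN4, and 3293 and 5235 in Lat-KO γδ− and γδint. Gapdh alone made up 882 CPM of the first and 2011 CPM of the second of these sums. In spiked B barcodes with few T cell UMIs, set out further on, the 32 genes summed to 1479 CPM in WT DN3a. There they summed to 2115 and 2134 in γδ− DN3b and DN4, 2234 and 1431 in γδ+ DN3b and DN4, and 2336 and 2868 in Lat-KO γδ− and γδint. What RNA shared by all barcodes of a library added to the thymocyte sums was not tested. The members did not move alike. In WT DN3b γδ− over WT DN3a, the median log2 ratio of the 23 genes was 0.63 beside -0.11 for all features tested, yet single genes ran from 2.40 (Pfkp) to -1.52 (Ldhb).

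Of the 23 genes, 8 were at least 2-fold higher in WT DN3b γδ− than in WT DN3a, against 9.87% of all features, and 1 was lower, against 16.8%. WT DN4 γδ− had 5 higher and 2 lower over WT DN3a (7.59% and 19.8% of all features), with a median of 0.50. WT DN3b γδ+ had 10 higher and 2 lower (10.2% and 15.6%), with a median of 0.80. WT DN4 γδ+, the more mature γδ stage, had 6 higher and 3 lower (8.88% and 7.86%), with a median of 0.38. Lat-KO DN3 γδ− had none past 2-fold in either direction (3.38% and 0.923%), and its median of 0.29 stood beside 0.23 for all features. Lat-KO DN3 γδint had 10 higher and none lower (13.9% and 4.63%), with a median of 0.72 beside 0.46 for all features. With a filter of 1 CPM in place of 5, Pfkfb2, Pfkfb4, Aldoc and Pdk2 were also at least 2-fold lower in γδ− DN3b, γδ− DN4 and γδ+ DN3b, for 5, 6 and 6 genes lower over WT DN3a, against 20.9%, 23.9% and 19.8% of the features under that filter. The map of ratios shows where the calls at 5 CPM fell among the genes.

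**Figure D1:**
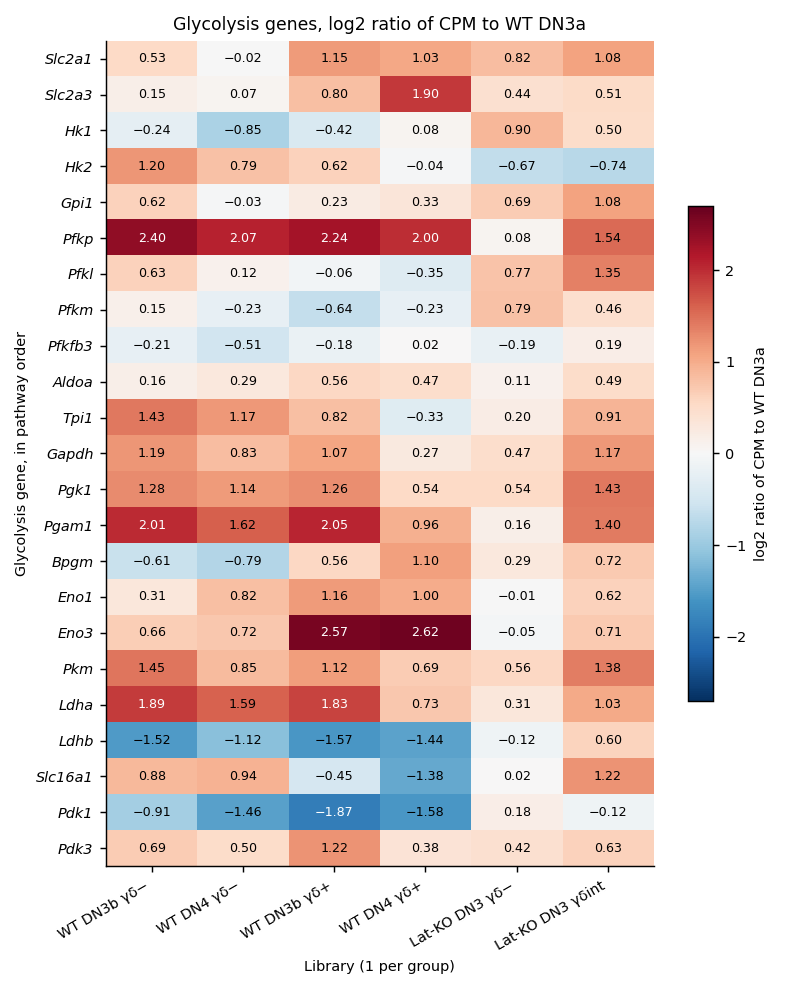
Log2 ratio of CPM to WT DN3a for the 23 glycolysis genes that reached a mean of 5 CPM (rows, in order of the pathway) in the other 6 libraries (columns), with 1 library per group. Pfkp was at least 2-fold higher and Ldhb at least 2-fold lower in all 4 selected WT libraries. Pgam1 and Ldha were at least 2-fold higher in those except γδ+ DN4, Pdk1 was at least 2-fold lower in those except γδ− DN3b, and no gene passed 2-fold in Lat-KO DN3 γδ−.

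These splits depend on the scaling, because the median of all features moved by more than 0.1 under trimmed-mean (TMM) scaling in most comparisons, by between -0.42 and 0.36. TMM scaling gave 11 higher and 1 lower for both WT DN3b γδ− (against 18.3% and 9.56% of all features under that scaling) and WT DN4 γδ− (14.6% and 12.1%) over WT DN3a. For Lat-KO DN3 γδint over WT DN3a it gave 2 higher and 1 lower (4.19% and 7.47%), and a total without ribosomal-protein and mitochondrial genes gave 5 and 1 (5.09% and 6.74%). That second total gave 6 higher and 2 lower for WT DN3b γδ+ (7.90% and 19.9%) and 3 and 3 for WT DN4 γδ+ (7.87% and 9.12%), each over WT DN3a. Under TMM scaling the medians of the 23 genes over WT DN3a were 0.99 and 0.87 in γδ− DN3b and DN4, 1.13 and 0.40 in γδ+ DN3b and DN4, and 0.13 and 0.30 in Lat-KO γδ− and γδint.

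Glucose enters through the transporters GLUT1 (Slc2a1) and GLUT3 (Slc2a3), whose genes were both at low levels. Slc2a1 was at 4.02 CPM in WT DN3a, 5.82 and 3.96 in γδ− DN3b and DN4, 8.91 and 8.23 in γδ+ DN3b and DN4, and 7.12 and 8.51 in Lat-KO γδ− and γδint. It was thus higher in both γδ+ libraries than in the γδ− ones, with 1.53-fold between WT DN3b γδ+ and WT DN3b γδ− (log2 ratio 0.62, 95% interval 0.52 to 0.71). Slc2a3 was at 4.89, 5.44, 5.13, 8.54, 18.3, 6.62 and 6.98 CPM in the same order, and was highest in WT DN4 γδ+. There it was 3.74-fold above WT DN3a (log2 ratio 1.90, 1.71 to 2.10) and 2.15-fold above WT DN3b γδ+ (1.10, 0.99 to 1.21). Slc2a3 took 69.0% of the UMIs of both transporter genes in WT DN4 γδ+ and 45.1% to 56.4% in the other libraries.

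Hexokinases trap glucose in the cell as its phosphate, Hk1 being the widely used form and Hk2 the form known to be induced in growing cells. Hk2 was at 8.23 CPM in WT DN3a, 18.8 and 14.2 in γδ− DN3b and DN4, 12.7 and 7.99 in γδ+ DN3b and DN4, and 5.17 and 4.92 in Lat-KO γδ− and γδint. The ratio of WT DN3b γδ− to WT DN3a was 2.29-fold (log2 1.20, 1.06 to 1.34). Hk1 ran the other way, from 14.7 CPM in WT DN4 γδ− to 49.7 CPM in Lat-KO DN3 γδ−, with 26.6 CPM in WT DN3a. The share of Hk2 in the UMIs of both genes was accordingly 23.6% in WT DN3a, 45.5% and 49.1% in γδ− DN3b and DN4, and 38.9% in γδ+ DN3b. It was back at 22.1% in WT DN4 γδ+, and at 9.42% and 11.6% in the Lat-KO γδ− and γδint libraries. Hk3, another hexokinase gene, reached at most 0.0793 CPM, from 3 UMIs.

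Gpi1, which encodes the isomerase that follows, was at 188 CPM in WT DN3a, 288 and 184 in γδ− DN3b and DN4, 220.5 and 236 in γδ+ DN3b and DN4, and 303 and 397 in Lat-KO γδ− and γδint. It passed 2-fold over WT DN3a in the last of these alone (log2 1.08, 1.04 to 1.12). TMM scaling shifts that ratio by -0.42 and a total without ribosomal-protein and mitochondrial genes by -0.34, and either takes it under 2-fold. In spiked B barcodes the ratio was 1.22. Phosphofructokinase commits the sugar to glycolysis and is made of platelet (Pfkp), liver (Pfkl) and muscle (Pfkm) type subunits. Pfkp was at 7.17 CPM in WT DN3a and 7.57 in Lat-KO DN3 γδ−, against 37.8 and 30.2 in γδ− DN3b and DN4, 33.8 and 28.7 in γδ+ DN3b and DN4, and 20.8 in Lat-KO DN3 γδint. No interval of the first pair (6.47 to 7.92 and 6.83 to 8.37 CPM) came near those of the other libraries. The ratio to WT DN3a was 5.27-fold in WT DN3b γδ− (log2 2.40, 2.25 to 2.55), and 2.90-fold in Lat-KO DN3 γδint (1.54, 1.36 to 1.72). Pfkp was the phosphofructokinase gene that moved most, since Pfkm stayed between 4.01 and 10.9 CPM, and Pfkl was at 43.4 CPM in WT DN3a, 67.1 and 47.2 in γδ− DN3b and DN4, 41.5 and 34.1 in γδ+ DN3b and DN4, and 74.0 and 111 in Lat-KO γδ− and γδint. Of the UMIs of the 3 genes, Pfkp held 12.6% in WT DN3a, 33.8% to 42.6% in the 4 selected WT libraries, and 8.19% and 14.9% in the Lat-KO γδ− and γδint libraries.

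Fructose 2,6-bisphosphate activates phosphofructokinase and is set by the PFKFB enzymes and by TIGAR, which degrades it. Pfkfb3 lay between 6.70 and 10.9 CPM in all 7 libraries, and no comparison took it past 2-fold. Pfkfb1, Pfkfb2, Pfkfb4 and Tigar did not reach the mean of 5 CPM, with highest levels of 0.873, 2.19, 7.67 and 4.60 CPM. Aldolase splits the sugar, and its gene Aldoa also moved little, from 134 CPM in WT DN3a to 197 CPM in WT DN3b γδ+, while Aldoc reached 5.90 CPM at most. Tpi1, for the isomerase that joins the products of that split, was at 112 CPM in WT DN3a, 302 and 252 in γδ− DN3b and DN4, 198 and 89.1 in γδ+ DN3b and DN4, and 129 and 211 in Lat-KO γδ− and γδint. It was 2.69-fold higher in WT DN3b γδ− than in WT DN3a (log2 1.43, 1.39 to 1.46).

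The lower part of the pathway, from glyceraldehyde phosphate to pyruvate, recovers the ATP. Gapdh, for the dehydrogenase that opens it, was at 882 CPM in WT DN3a, 2011 and 1566 in γδ− DN3b and DN4, 1846 and 1060.2 in γδ+ DN3b and DN4, and 1222 and 1988 in Lat-KO γδ− and γδint. Pgk1, for the kinase that makes the first ATP of this part, was at 128, 310.4, 282, 307, 187, 186 and 345 CPM in that order. Pgam1, for the mutase that follows, was at 85.6, 345, 263, 355, 166, 95.4 and 226 CPM. The 3 genes shared an order in which WT DN3a was lowest and the DN3b libraries or Lat-KO DN3 γδint were highest. Pgam1 was 4.03-fold higher in WT DN3b γδ− (log2 2.01, 1.97 to 2.05) and 4.15-fold higher in WT DN3b γδ+ (2.05, 2.01 to 2.10) than in WT DN3a, and differed by 1.03-fold between the DN3b pair. Gapdh carried the narrowest counting intervals of the 23 genes, with a half-width of at most 0.904% of the level.

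**Figure D2:**
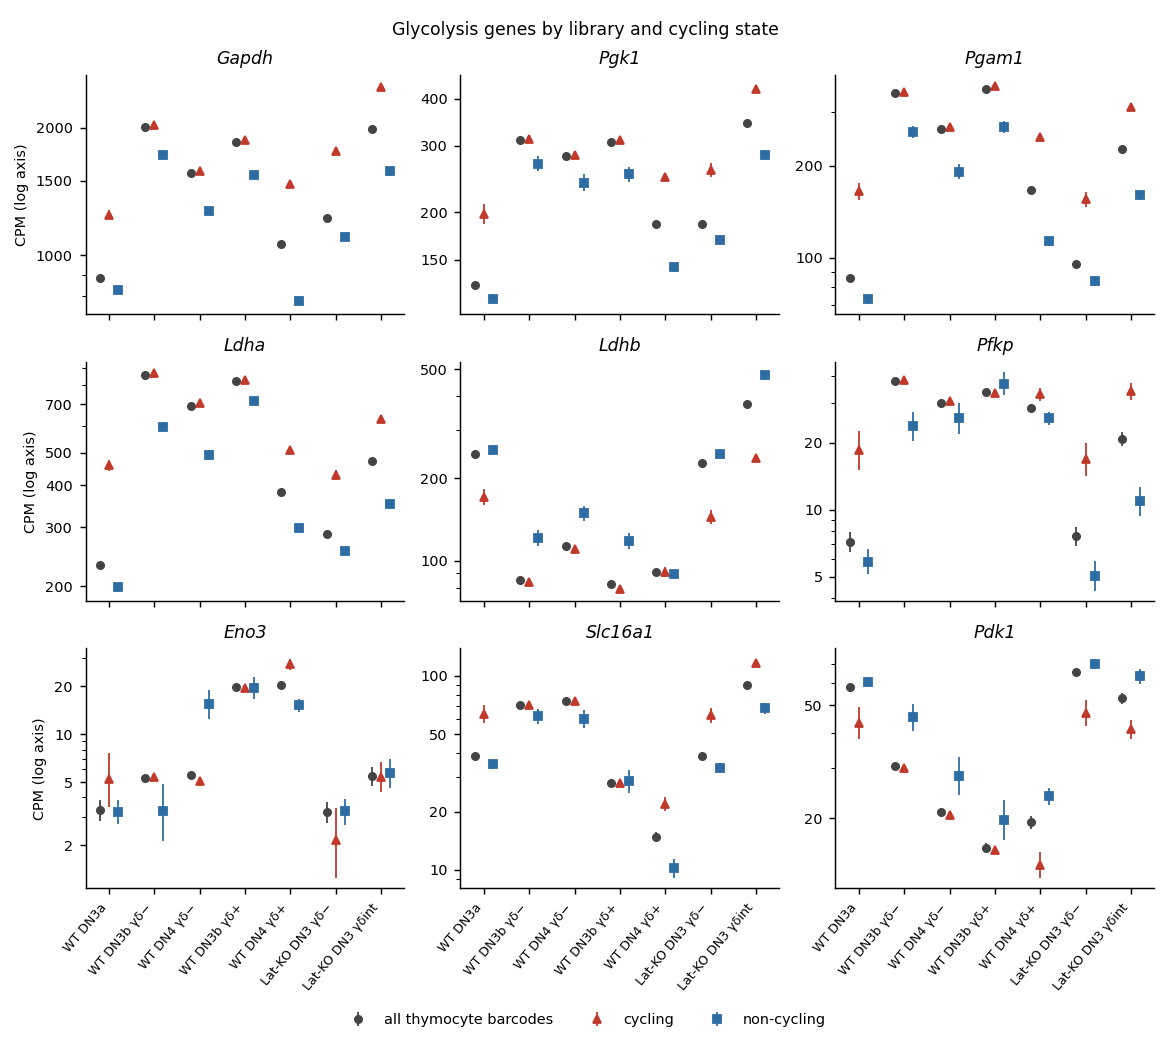
CPM (log axis) of 9 glycolysis genes in the 7 libraries, for all thymocyte barcodes and for those called cycling and non-cycling, with 95% Poisson intervals and 1 library per group. Gapdh, Pgk1, Pgam1, Ldha and Pfkp were lowest in WT DN3a among all barcodes. Eno3 was high in both γδ+ libraries and in non-cycling barcodes of γδ− DN4. Ldhb was highest in WT DN3a among the WT libraries, where Ldha was lowest.

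Bpgm makes 2,3-bisphosphoglycerate, a side product best known from red cells. It was at 29.2 CPM in WT DN3a, 19.1 and 16.9 in γδ− DN3b and DN4, 43.1 and 62.5 in γδ+ DN3b and DN4, and 35.8 and 47.9 in Lat-KO γδ− and γδint. The γδ− WT libraries were thus below WT DN3a and the γδ+ libraries above it. The summed erythroid markers were at 0.167 CPM in WT DN3a, 169.8 CPM in WT DN4 γδ− and 1.53 to 35.7 CPM elsewhere, and their part in the Bpgm levels was not tested. Bpgm was 2.25-fold higher in WT DN3b γδ+ than in WT DN3b γδ− (log2 1.17, 1.12 to 1.22).

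Enolase makes phosphoenolpyruvate, from Eno1 in most cells and from Eno3 in muscle. Eno3 was at 3.33 CPM in WT DN3a, 5.28 and 5.50 in γδ− DN3b and DN4, 19.8 and 20.5 in γδ+ DN3b and DN4, and 3.22 and 5.45 in Lat-KO γδ− and γδint. Over all barcodes both γδ+ libraries stood above all others, and in WT DN3b γδ+ Eno3 was 3.74-fold above WT DN3b γδ− (log2 1.90, 1.82 to 1.99). Eno1 was at 55.1, 68.2, 97.2, 123, 110.4, 54.8 and 84.4 CPM in the same order. Eno3 took 13.9% and 15.7% of the UMIs of Eno1 and Eno3 in WT DN3b γδ+ and WT DN4 γδ+, and 5.35% to 7.18% in the other libraries. Among non-cycling barcodes, Eno3 was at 15.4 CPM in WT DN4 γδ− (92 UMIs) and 15.2 CPM in WT DN4 γδ+. In those of WT DN3b γδ− and WT DN3b γδ+ it was at 3.30 and 19.6 CPM. Eno1 has a near-identical copy, Eno1b, which was counted at 0.199 to 2.50 CPM, and how reads were split between them is uncertain. Eno2, the neuronal enolase, reached 0.802 CPM at most.

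Across the DN3b pair as a whole, the glycolysis genes were nearly balanced. The median of γδ+ over γδ− DN3b was -0.06 beside -0.04 for all features, with 9 genes above 0 and 14 below (46.4% of all features were above 0). Bpgm and Eno3 were at least 2-fold higher (2 of 23, against 5.05% of all features) and Slc16a1 was at least 2-fold lower (1 of 23, against 2.93%). With a total without ribosomal-protein and mitochondrial genes, 2 were higher and 2 lower (against 4.44% and 3.76%). Gapdh, Pgk1, Pgam1 and Ldha lay between -0.12 and 0.04, and Pkm was at -0.33. Hk2 (-0.57), Tpi1 (-0.61), Pfkl (-0.69), Pfkm (-0.79) and Pdk1 (-0.96) were lower in γδ+ without reaching 2-fold, and Slc2a1 (0.62), Slc2a3 (0.65) and Eno1 (0.85) higher.

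Pyruvate kinase closes the pathway, and its gene Pkm was at 189.8 CPM in WT DN3a, 519 and 343 in γδ− DN3b and DN4, 412 and 307 in γδ+ DN3b and DN4, and 281 and 494 in Lat-KO γδ− and γδint. These 3′ counts do not tell the M1 and M2 forms of Pkm apart. Lactate dehydrogenase then makes lactate, and its A subunit is known to favour that direction and its B subunit the reverse. Ldha (chromosome 7, 46841475 to 46855627, plus strand of mm10) was at 231 CPM in WT DN3a, 855 and 692 in γδ− DN3b and DN4, 819.9 and 383 in γδ+ DN3b and DN4, and 285 and 472 in Lat-KO γδ− and γδint. Ldhb (chromosome 6, 142490249 to 142507957, minus strand) was at 246, 85.6, 113, 82.6, 90.9, 227 and 373 CPM in that order. The 4 selected WT libraries had more Ldha and less Ldhb than WT DN3a, whereas both were higher in Lat-KO DN3 γδint than in WT DN3a. In that last comparison the median of all features was 0.46, and TMM scaling shifts each log2 ratio by -0.42. Ldhb in spiked B barcodes with few T cell UMIs was at 21.1 CPM in WT DN3a and 29.9 CPM in Lat-KO DN3 γδint, from 9 and 10 UMIs.

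In WT DN3b γδ−, Ldha was 3.71-fold higher than in WT DN3a (log2 1.89, 1.86 to 1.92) and Ldhb was 2.87-fold lower (-1.52, -1.55 to -1.49). The share of Ldhb in the UMIs of both genes does not depend on how libraries are scaled. It was 51.6% in WT DN3a (95% interval 51.0% to 52.2%), 9.09% (8.99% to 9.19%) and 14.0% in γδ− DN3b and DN4, 9.16% and 19.2% in γδ+ DN3b and DN4, and 44.3% and 44.1% in Lat-KO γδ− and γδint. The share thus separated WT DN3a and the Lat-KO libraries from the 4 selected WT libraries. The share in Lat-KO DN3 γδint was below that in WT DN3a, and its Ldha level was 2.05-fold that of WT DN3a, a log2 ratio of 1.03 beside 1.04 in the spiked B barcodes.

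**Figure D3:**
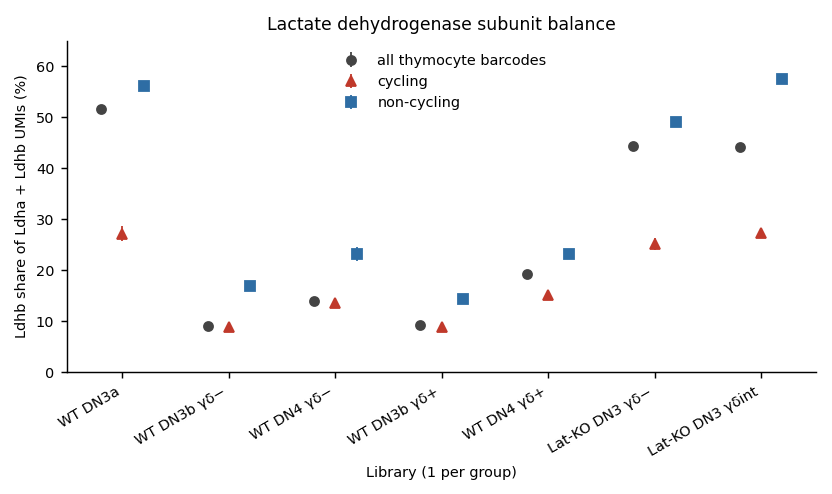
Share (%) of Ldhb in the UMIs of Ldha and Ldhb by library, for all, cycling and non-cycling thymocyte barcodes, with exact 95% binomial intervals that cover counting error only. WT DN3a and both Lat-KO libraries lie at 44.1% to 51.6% over all barcodes and the other 4 libraries at 9.09% to 19.2%, and the share was lower in cycling than in non-cycling barcodes of each library.

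Lactate leaves through monocarboxylate transporters, of which MCT1 is encoded by Slc16a1 and MCT4 by Slc16a3. Slc16a1 was at 38.4 CPM in WT DN3a, 70.6 and 73.7 in γδ− DN3b and DN4, 28.1 and 14.8 in γδ+ DN3b and DN4, and 38.8 and 89.4 in Lat-KO γδ− and γδint. It was above WT DN3a in the γδ− WT libraries and below it in the γδ+ ones, the reverse of Bpgm. Slc16a1 was 2.52-fold lower in WT DN3b γδ+ than in WT DN3b γδ− (log2 -1.33, -1.37 to -1.29), although Ldha was at nearly the same level in both. Slc16a3 reached 3.55 CPM at most, in WT DN4 γδ+. The gene models Gm43581 and Gm43585 overlap Slc16a1 on its strand, and how shared reads were counted is uncertain.

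Pyruvate dehydrogenase kinases switch off the enzyme that passes pyruvate to the citrate cycle. Pdk1 was at 57.7 CPM in WT DN3a, 30.6 and 21.0 in γδ− DN3b and DN4, 15.7 and 19.3 in γδ+ DN3b and DN4, and 65.5 and 52.9 in Lat-KO γδ− and γδint. All 4 selected WT libraries were below WT DN3a and both Lat-KO libraries were within 1.14-fold of it in CPM. For Lat-KO γδint this depends on the scaling. TMM shifts its log2 ratio by -0.42 and a total without ribosomal-protein and mitochondrial genes by -0.34. The ratio to WT DN3a was 3.67-fold lower in WT DN3b γδ+ (log2 -1.87, -1.95 to -1.80). Pdk3 moved the other way in the DN3b libraries, at 18.6 CPM in WT DN3a, 29.96 and 43.3 in γδ− and γδ+ DN3b, with 26.4 and 24.1 in γδ− and γδ+ DN4, and 24.9 and 28.7 in Lat-KO γδ− and γδint. Of the UMIs of Pdk1, Pdk2 and Pdk3, Pdk1 held 69.4% in WT DN3a, 49.4% in γδ− DN3b, 26.2% in γδ+ DN3b and 64.2% in Lat-KO γδ−, and Pdk3 held 22.4%, 48.3%, 72.0% and 24.5%. Pdk2 reached 11.5 CPM, in Lat-KO DN3 γδ−.

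The libraries also differed in how many barcodes were dividing. Cycling barcodes, which carried at least 2 UMIs of the mitotic and replication genes Mki67 and Top2a together, made up 6.16% of WT DN3a, 88.4% and 83.6% of γδ− DN3b and DN4, 80.8% and 18.4% of γδ+ DN3b and DN4, and 8.87% and 23.3% of Lat-KO γδ− and γδint. Thinned to 4000 UMIs a barcode, which kept 79.7% to 95.5% of barcodes and left out the shallower ones, the shares were 2.21%, 66.5%, 57.0%, 53.0%, 11.8%, 4.28% and 16.5%. Non-cycling barcodes had none of these UMIs, and those with 1 UMI were in neither class. Median depths were 12113 to 19996 UMIs in cycling barcodes and 4438.5 to 7658 in non-cycling ones, so that a shallow cycling cell could be called non-cycling. Spiked B barcodes with few T cell UMIs, set out further on, held 9.39 CPM of Top2a in WT DN3a. They held 117 and 183 CPM in γδ− DN3b and DN4, 144 and 33.5 in γδ+ DN3b and DN4, and 5.15 and 65.8 in Lat-KO γδ− and γδint. What RNA shared by all barcodes of a library added to the cycling calls was not tested.

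Within libraries, cycling barcodes had more of the lower-pathway genes, but in different degrees. In WT DN3a the median log2 ratio of cycling over non-cycling barcodes was 0.49 beside -0.05 for all features (0.82 with cycling set at 5 UMIs or more of Mki67 and Top2a), and Hk2 (1.01), Pfkp (1.66), Pgam1 (1.16) and Ldha (1.21) were at least 2-fold higher (4 of 23, against 5.36% of all features). In WT DN4 γδ+ the median was 0.31, and Tpi1 (1.499), Pgam1 (1.13) and Slc16a1 (1.10) passed 2-fold (against 7.80%). In the Lat-KO γδ− and γδint libraries only Pfkp did, at 1.74 and 1.64 (against 5.09% and 5.40%), with medians of 0.27 and 0.03. None passed 2-fold upward in the other 3 WT libraries, γδ− DN3b, γδ− DN4 and γδ+ DN3b (2.49%, 2.38% and 2.55% of all features), whose medians were 0.21, 0.25 and -0.04. With TMM scaling those medians were 0.65, 0.69 and 0.28, and that of Lat-KO γδint was 0.22. Other cycle genes gave 0.39 in γδ− DN3b, barcodes thinned to 4000 UMIs gave -0.015 in γδ− DN4, and a filter of 1 CPM gave -0.0027 in γδ+ DN4, so the direction in both DN4 libraries depended on these choices. Downward, Eno3 passed in WT DN4 γδ− (-1.59, against 5.71%), where non-cycling barcodes held 15.4 CPM of it, and Ldhb in Lat-KO DN3 γδint (-1.01, against 4.84%). Pgam1, Tpi1, Gapdh, Pgk1, Pkm and Ldha were nonetheless above 0 in all 7 libraries.

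Ldha was higher in cycling than in non-cycling barcodes of all 7 libraries, and Ldhb was lower in all but WT DN4 γδ+. There Ldhb was at 91.0 CPM in cycling and 89.7 CPM in non-cycling barcodes, with overlapping intervals. Cycling barcodes of WT DN3a had 459 CPM of Ldha and 171 CPM of Ldhb, and non-cycling ones 198 and 255 CPM. The share of Ldhb in both was 27.2% in cycling barcodes of WT DN3a, 25.1% in those of Lat-KO DN3 γδ− and 27.3% in those of Lat-KO DN3 γδint, against 56.2%, 49.1% and 57.5% in their non-cycling barcodes. In the 4 selected WT libraries it was 8.76% to 15.1% in cycling and 14.2% to 23.2% in non-cycling barcodes. The non-cycling barcodes of the selected WT libraries thus had a lower share than the cycling barcodes of WT DN3a.

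Much of the difference from WT DN3a was also seen among barcodes called non-cycling. These lacked UMIs of Mki67 and Top2a and could still include dividing cells. In γδ− DN3b the median log2 ratio was 0.59 there, and 8 of 23 genes passed 2-fold upward, against 7.09% of all features. They were Hk2, Pfkp, Tpi1, Gapdh, Pgk1, Pgam1, Pkm and Ldha, the set called over all barcodes, with Ldhb lower (1 of 23, against 10.3%). Ldha was at 198 CPM in non-cycling barcodes of WT DN3a, 599 and 493 in those of γδ− DN3b and DN4, 714 and 299 in those of γδ+ DN3b and DN4, and 255 and 351 in those of Lat-KO γδ− and γδint. Every other library was above WT DN3a in Ldha, as it was over all barcodes. In spiked B barcodes with few T cell UMIs, Ldha was at 108 CPM in WT DN3a, 253 and 299 in γδ− DN3b and DN4, and 300.6 in γδ+ DN3b. The part of RNA shared by all barcodes of a library in the non-cycling ratios was not tested. Non-cycling barcodes were few in the dividing libraries, at 993, 1002 and 1053 in γδ− DN3b, γδ− DN4 and γδ+ DN3b, against 5429 in WT DN3a.

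The other non-cycling comparisons with WT DN3a differed in which isozymes stood out. In γδ− DN4 the median was 0.41, with Pfkp, Pgk1, Pgam1, Eno3 and Ldha higher (5 of 23, against 5.98%) and Pdk1 lower (1 of 23, against 11.9%). In γδ+ DN3b it was 0.85, with 9 genes higher (against 9.06%), Pfkp at 2.65 and Eno3 at 2.60 the furthest, and Ldhb (-1.10) and Pdk1 (-1.61) lower (against 12.0%). In γδ+ DN4 it was 0.28, with Slc2a1, Slc2a3, Pfkp, Bpgm and Eno3 higher (5 of 23, against 8.35%) and Ldhb, Slc16a1 and Pdk1 lower (3 of 23, against 8.56%). Gapdh (-0.09), Pgk1 (0.28) and Ldha (0.59) were closer to WT DN3a there than in the other WT libraries. In Lat-KO γδ− it was 0.30, with none past 2-fold (2.62% of all features higher and 1.08% lower). In Lat-KO γδint it was 0.83 beside 0.51 for all features, with Slc2a1, Gpi1, Pfkl, Pgk1, Pgam1 and Pkm higher (6 of 23, against 12.4%) and none lower (against 4.46%). TMM scaling within non-cycling barcodes gave medians of 0.12 for Lat-KO γδ− and 0.36 for Lat-KO γδint.

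The cycling barcodes of WT DN3a held less of the genes that define them than those of the other libraries, with 91.6 CPM of Mki67 against 286 to 535 CPM and 323 CPM of Top2a against 561 to 812 CPM, and the part of this in the ratios was not tested. Among cycling barcodes the median was 0.36 in γδ− DN3b, where Pfkp (1.05) and Pgam1 (1.08) were higher (2 of 23, against 3.18% of all features) and Ldhb (-1.03) was lower (against 9.67%). In γδ− DN4 it was 0.11, with none higher (against 2.62%) and Pdk1 lower (against 13.0%). In γδ+ DN3b it was 0.59, with Pgam1 (1.14) and Eno3 (1.90) higher (against 4.74%) and Ldhb (-1.11), Slc16a1 (-1.19) and Pdk1 (-1.49) lower (against 9.64%). Slc16a1 was thus below WT DN3a in γδ+ DN3b among cycling barcodes too. In γδ+ DN4 it was 0.24, with Slc2a3 (1.64), Bpgm (1.24) and Eno3 (2.39) higher (against 7.56%) and Slc16a1 (-1.55) and Pdk1 (-1.66) lower (against 8.31%). In Lat-KO γδ− it was 0.23, with Hk1 (1.07) higher (against 5.24%) and Eno3 (-1.28) lower (against 1.57%). In Lat-KO γδint it was 0.55 beside 0.40 for all features, with Gpi1, Gapdh, Pgk1 and Pkm higher (4 of 23, against 11.3%) and Hk2 lower (-1.29, against 5.14%). Cycling barcodes numbered only 420 in WT DN3a and 574 in Lat-KO γδ−. A TMM scaling within cycling barcodes gave medians of 0.88 and 0.67 for γδ− DN3b and DN4, 1.07 and 0.43 for γδ+ DN3b and DN4, and 0.071 and 0.31 for Lat-KO γδ− and γδint.

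Along the γδ− path, from WT DN3b γδ− to WT DN4 γδ−, the levels eased without any gene passing 2-fold over all barcodes. The median log2 ratio was -0.31 beside -0.12 for all features, with 5 of 23 genes above 0 and 18 below, where 33.2% of all features were above 0. Of all features, 0.648% were called higher and 1.54% lower. Gpi1 (-0.64), Hk1 (-0.61) and Pkm (-0.60) lay lowest, and Eno1 (0.51) and Ldhb (0.40) highest. Both libraries were mostly cycling, and among cycling barcodes alone the median was -0.30. Among non-cycling barcodes it was -0.19 beside -0.12 for all features, and single genes ran from -1.02 (Slc2a1) to 2.22 (Eno3). For the 10 genes with enough B cell UMIs, the median over all barcodes was -0.28 in thymocytes and 0.12 in spiked B barcodes.

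Along the γδ+ path, from WT DN3b γδ+ to WT DN4 γδ+, 3 genes of the middle and end of the pathway fell while the GLUT3 gene rose. Tpi1 fell by 1.15 on the log2 scale, Pgam1 by 1.09 and Ldha by 1.10 (3 of 23 genes lower, against 6.62% of all features), and Slc2a3 rose by 1.10 (1 of 23, against 11.1%). With TMM scaling none was higher and 7 were lower, against 6.23% and 13.5% of all features, and the median of the 23 was -0.46. Without that scaling the median was -0.15 beside 0.10 for all features, and Gapdh (-0.80), Pgk1 (-0.72), Pkm (-0.43), Eno1 (-0.15), Aldoa (-0.09), Eno3 (0.06), Gpi1 (0.10), Ldhb (0.14) and Bpgm (0.54) did not reach 2-fold. Cycling barcodes went from 80.8% to 18.4% between these libraries. Among non-cycling barcodes the median was -0.37, Slc2a3 (1.15) was higher (1 of 23, against 11.1%), and Tpi1 (-1.52), Pgam1 (-1.24), Ldha (-1.26), Slc16a1 (-1.49) and Pdk3 (-1.02) were at least 2-fold lower (5 of 23, against 11.6%). Among cycling barcodes the median was -0.12, with Ldha at -0.70, Pgam1 at -0.55 and Tpi1 at -0.47, and -0.42 with TMM scaling. The spiked B barcodes fell over this step too. For the 9 genes with enough B cell UMIs, the median was -0.72 in thymocytes and -0.90 in B barcodes. There Tpi1 was at -1.37, Ldha at -0.91 and Pgam1 at -0.56.

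In Lat-KO DN3 γδ−, where cells lack LAT and the surface γδ TCR, the genes stayed near WT DN3a. Hk1 was the most raised at 1.87-fold (log2 0.90, 0.810 to 0.999) and Hk2 the most reduced at 1.59-fold (-0.67, -0.90 to -0.45). Slc2a1 (0.82), Pfkm (0.79), Pfkl (0.77) and Gpi1 (0.69), all of the upper pathway, were next, while Pfkp (0.08, -0.13 to 0.29) and Eno3 (-0.05, -0.36 to 0.27) had intervals that spanned 0. TMM scaling would take 0.17 from each ratio, and leave Pgam1 (0.16) and Pdk1 (0.18) at about 0.

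Between the Lat-KO pair, γδint over γδ−, which share the genotype and the reporter, the median was 0.58 beside 0.20 for all features. Pfkp (1.46, 1.28 to 1.64), Pgam1 (1.25, 1.19 to 1.30) and Slc16a1 (1.20, 1.12 to 1.28) were at least 2-fold higher (3 of 23, against 4.95% of all features) and none was lower (against 3.48%), with 1 higher (against 2.86%) and a median of 0.33 under TMM scaling. Pgk1 (0.89), Pkm (0.81), Ldha (0.73), Ldhb (0.72) and Gapdh (0.70) were higher without reaching 2-fold, and Hk1 (-0.40) and Pdk1 (-0.31) were lower. The share of cycling barcodes was 8.87% in γδ− and 23.3% in γδint. Within cycling and non-cycling barcodes alone the median was 0.49 in each (0.41 and 0.20 with TMM scaling). Among non-cycling barcodes Pfkp (1.12) and Slc16a1 (1.01) passed 2-fold and Pgam1 (0.94) did not. Among cycling barcodes Pfkp, Pgam1 and Eno3 passed it, Eno3 from 83 UMIs in γδint and 17 in γδ−. Slc16a1 did not pass it there, at 116 CPM in γδint and 62.6 CPM in γδ−.

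The spiked B cells offer a background measured in the same libraries, since they came from spleen and not from the thymocyte groups. The paper reports that those of Lat-KO DN3 γδint did not overlay the rest, owing to another proportion of ribosomal mRNA. It regressed that proportion out. B barcodes with at most 2 UMIs of T cell markers and under 8000 UMIs in all numbered 91 to 272 per library. Their Gapdh level nevertheless differed between libraries, though not in the order of the thymocyte levels. It was at 373 CPM in WT DN3a, 583 and 637 in γδ− DN3b and DN4, 648 and 346 in γδ+ DN3b and DN4, and 604 and 697 in Lat-KO γδ− and γδint. Ldha differed likewise, at 108, 253, 299, 300.6, 160.0, 168 and 221 CPM. These barcodes still held 537 to 862 CPM of the 10 T cell markers, and the part of free RNA shared by all barcodes of a library was not tested. Their median log2 ratio to WT DN3a over all features with a ratio was 0.30 and 0.17 in γδ− DN3b and DN4. It was 0.15 and 0.080 in γδ+ DN3b and DN4, and 0.21 and 0.57 in Lat-KO γδ− and γδint.

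For the genes with enough B cell UMIs, the thymocyte ratio can be set beside that of B barcodes. In WT DN3b γδ− over WT DN3a, 11 genes had a median of 1.28 in thymocytes and 0.69 in B barcodes, and the thymocyte ratio was larger for 10 of 11. Pfkp was at 2.40 in thymocytes and -0.59 in B barcodes, Pgam1 at 2.01 and 0.97, Ldha at 1.89 and 1.23, and Gpi1 at 0.62 and 0.69. In WT DN3b γδ+ over WT DN3a the medians over 9 genes were 1.12 in thymocytes and 0.81 in B barcodes, with 7 larger in thymocytes. In WT DN4 γδ− over WT DN3a they were 0.85 and 0.54 over 9 genes, with 8 larger in thymocytes. In WT DN4 γδ+ over WT DN3a the medians were 0.51 and -0.09 over 10 genes. In Lat-KO DN3 γδ− over WT DN3a the medians over 11 genes were 0.31 in thymocytes and 0.71 in B barcodes, with 2 of 11 larger in thymocytes. In Lat-KO DN3 γδint they were 1.17 and 0.90, with 7 of 11 larger in thymocytes, Ldha at 1.03 and 1.04, Pkm at 1.38 and 1.34, and Pfkp at 1.54 and 0.65. Between the Lat-KO libraries they were 0.71 and 0.40, with 10 of 11 larger in thymocytes. Less the ratio of the B barcodes, Gpi1 (-0.14) and Ldha (-0.0027) in Lat-KO DN3 γδint over WT DN3a, Tpi1 in WT DN4 γδ− over WT DN3a (-0.14) and Tpi1 in WT DN4 γδ+ over WT DN3b γδ+ (0.22) were on the other side of 0 from their 2-fold calls. Each of these thymocyte ratios lay within the counting interval of the B barcode ratio, which rested on 17 to 124 UMIs a library, so that the sign of the difference was not resolved. Other calls over WT DN3a also lay close to the B barcode ratio, such as Ldha in γδ− DN4 (1.59 and 1.47) and γδ+ DN3b (1.83 and 1.48). Whether they differ from it was not tested.

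**Figure D4:**
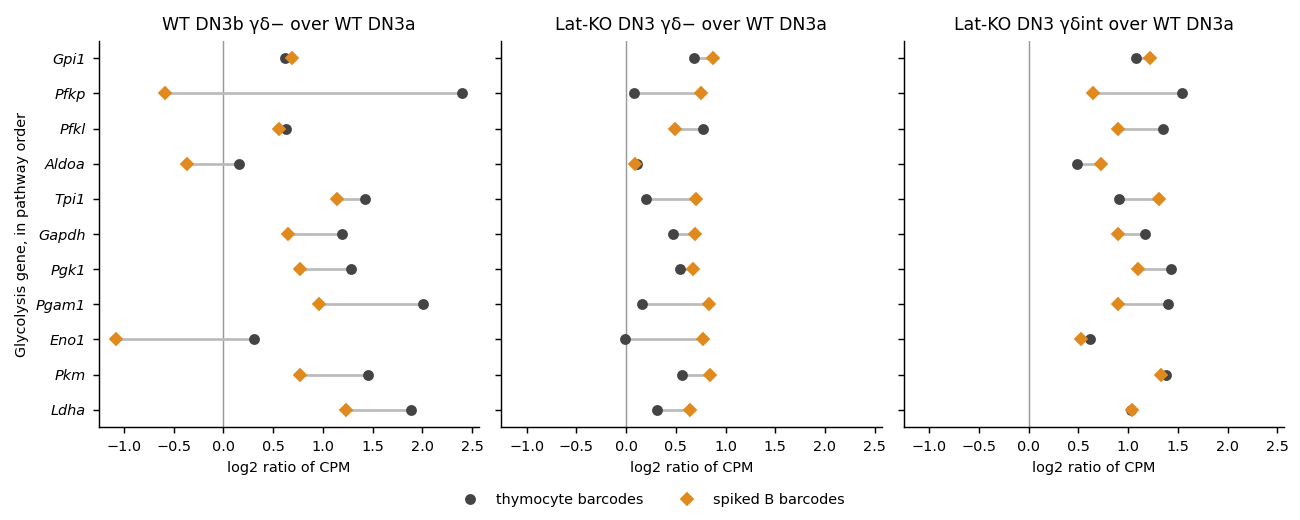
Log2 ratio of CPM to WT DN3a in thymocyte barcodes and in spiked B barcodes with few T cell UMIs, for 11 glycolysis genes in WT DN3b γδ−, Lat-KO DN3 γδ− and Lat-KO DN3 γδint. The thymocyte point lies to the right for 10 of 11 genes in WT DN3b γδ− and for 2 of 11 in Lat-KO DN3 γδ−.

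Genes that act on the pathway were followed as a list of 10 regulators, of which 9 reached the mean of 5 CPM. Myc, a driver of glycolytic genes in growing cells, was at 97.3 CPM in WT DN3a, 51.3 and 71.6 in γδ− DN3b and DN4, 30.8 and 19.7 in γδ+ DN3b and DN4, and 55.0 and 72.3 in Lat-KO γδ− and γδint. Its transcript was thus highest in WT DN3a, where the glycolysis genes summed lowest, but lowest in WT DN4 γδ+, which had the next lowest sum. From Lat-KO γδ− to γδint, Myc and that sum were both higher. Hif1a, whose product is steered by oxygen at the protein level, lay between 45.3 and 82.6 CPM. Txnip, an inhibitor of glucose uptake, was at 139 CPM in WT DN3a, 22.9 and 26.5 in γδ− DN3b and DN4, 34.2 and 93.2 in γδ+ DN3b and DN4, and 139 and 155 in Lat-KO γδ− and γδint. The order of Txnip was close to the reverse of that of Ldha among the WT libraries. In WT DN3b γδ−, 2 of the 9 regulators, Vhl and Txnip, were at least 2-fold lower than in WT DN3a (against 16.8% of all features) and none higher (against 9.87%), with a list median of -0.79. In Lat-KO DN3 γδ− none was past 2-fold, against 3.38% of all features higher and 0.923% lower.

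Tfrc, which encodes the CD71 used in the sort, was at 31.6 CPM in WT DN3a, 57.1 to 72.5 CPM in the 4 selected WT libraries, and 20.4 and 33.2 in Lat-KO γδ− and γδint. What CD71 gating contributes to the WT differences was not tested.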

How the data were processed

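The libraries were made with 10x 3′ v3 chemistry. The deposited files hold raw UMI counts per gene and barcode, which the authors made with Cell Ranger against mm10 with the edited Trdc gene added. The submitters' processing notes name version 5.0.1, with R 3.6.3 and Seurat 3.1.5, and the file header names 4.0.0. The counts were neither scaled nor corrected.

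Following the study, barcodes needed 200 or more detected genes, with mitochondrial UMIs at or under 15% of the total. UMIs were summed per gene over the thymocyte barcodes of a library, and over cycling and non-cycling ones, and scaled to CPM with scipy 1.17.1, numpy 2.4.6 and pandas 2.3.3 under Python 3.11.15 (figures: matplotlib 3.10.9). Aldoa, carried by 2 feature IDs, was summed. In all, 71081 thymocyte barcodes with 989651500 UMIs entered. The limit on Cd79a, Cd79b and Ms4a1 left out 1501 spiked B barcodes and 6494 others. Those others equalled 3.65% (WT DN4 γδ−) to 21.5% (Lat-KO DN3 γδ−) of the thymocyte barcodes kept, and may include thymocytes. Cd79b was still at 8.65 CPM (WT DN4 γδ−) to 49.3 CPM (Lat-KO DN3 γδ−) in the kept barcodes. The counting half-width of a level was 0.904% (Gapdh) to 16.6% (Eno3) at its widest. CPM have exact Poisson, log2 ratios exact conditional binomial, and shares exact Clopper-Pearson 95% intervals. With 1 library per group no test was run.

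The members and all lists were chosen with earlier results of these data known. By rule, members at a mean of 5 CPM or more were given in all libraries where past 2-fold in any of the 10 comparisons, and other listed genes were named only as regulators or past 2-fold over WT DN3a in either DN3b library. TMM factors came from edgeR 4.0.16 (R 4.3.3). No doublet caller was run, and an alternative left out the deepest 8% of barcodes. Positions are from GENCODE vM21 and promoter sequences from RefSeq (GRCm38.p6), which held a window for 31 of the 32 symbols and none for Slc2a3. The ratio step was tested on simulated counts. Near-identical copies and overlapping genes of members make their counts uncertain.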

Additional observations from a re-analysis of the deposited data

Results flagged for a closer look

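The 23 genes that reached the mean of 5 CPM were each followed from DN3a to DN3b and from DN3b to DN4. For 8 of these gene and step pairs the γδ− and γδ+ WT libraries moved in opposite directions. Both counting intervals excluded 0 and the signs were kept under TMM scaling. That scaling brought some values closer to 0, among them Pfkm on the γδ+ side to 0.11, where its interval spans 0, Hk1 on the γδ+ side to 0.20, and, from DN3a to DN3b, Slc16a1 on the γδ+ side to -0.13 and Bpgm on the γδ− side to -0.25. Each side is 1 library, so the difference itself was not tested. The count of 8 has no share of all features under the same rule beside it. Whether it is more than usual was therefore not tested. From DN3a to DN3b, where both sides share the DN3a library, the log2 ratio of Bpgm was -0.61 on the γδ− side and 0.56 on the γδ+ side, and that of the lactate exporter gene Slc16a1 was 0.88 and -0.45. From DN3b to DN4, Slc16a1 moved by 0.062 on the γδ− side and -0.92 on the γδ+ side, and Bpgm by -0.18 and 0.54. Over the same step the values were -0.61 and 0.50 for Hk1, -0.38 and 0.41 for Pfkm, 0.13 and -0.09 for Aldoa, and 0.51 and -0.15 for Eno1. Less the ratio of the spiked B barcodes, the values were 0.087 and 0.12 for Aldoa and -0.55 and -0.0017 for Eno1. All 4 thymocyte ratios lay within the counting intervals of the B barcode ratios, and Bpgm, Slc16a1, Hk1 and Pfkm had too few B cell UMIs in at least 1 library for this.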

How the results depend on the processing

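No gene called at 2-fold between libraries changed sign under the scaling and barcode alternatives. Subtracting the ratio of the B barcodes left Tpi1, Gpi1 and Ldha in the comparisons named above within counting error of 0. Other calls also came close to 0 this way, among them Pkm in Lat-KO γδint (0.044) and Ldha in γδ− DN4 (0.12) over WT DN3a. Medians changed sign for Lat-KO γδ− over WT DN3a and γδ+ DN4 over γδ+ DN3b once the B barcodes were taken off, and for medians within 0.04 of 0 and cycling over non-cycling ones in γδ− and γδ+ DN4 under at least 1 alternative. With 1 library per group, leaving out a library was not possible, and no paired analysis was possible because each group has 1 library. Of the medians and counts under the alternatives, 662 stayed close and 56 moved, and of the ratios of single genes 1195 stayed close and 645 moved. Close means within the order-statistic interval over the genes for a median, within 1.5 times for a count, and within the counting interval for a ratio. TMM scaling moved the γδ− DN4 over WT DN3a median to 0.87 with 11 genes higher and 1 lower, and that of Lat-KO γδint over WT DN3a to 0.30 with 2 higher and 1 lower. It gave 0 higher and 7 lower for γδ+ DN4 over γδ+ DN3b, and 1 higher between the Lat-KO libraries. In cycling barcodes TMM gave medians over WT DN3a of 0.88 (γδ− DN3b), 0.67 (γδ− DN4), 1.07 (γδ+ DN3b) and 0.31 (Lat-KO γδint), and -0.42 for γδ+ DN4 over γδ+ DN3b. In non-cycling barcodes it gave 0.36 for Lat-KO γδint over WT DN3a and 0.20 between the Lat-KO libraries. Cycling over non-cycling medians became 0.65, 0.69 and 0.28 in γδ− DN3b, γδ− DN4 and γδ+ DN3b. A total without ribosomal-protein and mitochondrial genes gave, over WT DN3a, 6 higher in γδ+ DN3b, 3 higher in γδ+ DN4, and a median of 0.38 with 5 higher and 1 lower in Lat-KO γδint (0.25 in cycling and 0.50 in non-cycling barcodes). It gave 2 lower for γδ+ DN3b over γδ− DN3b and 0.30 for non-cycling barcodes between the Lat-KO libraries. A filter of 1 CPM gave 5, 6 and 6 lower in γδ− DN3b, γδ− DN4 and γδ+ DN3b over WT DN3a, and no filter gave 6, 7 and 7. Both gave 1 lower for γδ− DN4 over γδ− DN3b. For γδ+ DN4 over γδ+ DN3b, a 1 CPM filter gave 2 higher and no filter 5. A filter of 20 CPM gave 3 higher in γδ+ DN4 over WT DN3a, 0 over γδ+ DN3b, and 1 for γδ+ DN3b over γδ− DN3b. Leaving out barcodes with erythroid or myeloid UMIs, the deepest 8% of barcodes, or averaging over barcodes each gave 2 lower in γδ− DN3b over WT DN3a and 2 higher in γδ+ DN4 over γδ+ DN3b, with 5, 6 and 6 lower there. Counts under no filter, the 20 CPM filter and these barcode alternatives have no share of all features beside them. The same holds for the 1 CPM counts of DN4 over DN3b. They show only how the calls moved. Without the deepest barcodes the cycling median of γδ− DN4 over WT DN3a was 0.42. Requiring 5 UMIs of Mki67 and Top2a gave 0.82 for cycling over non-cycling in WT DN3a, and other cycle genes gave 0.39 in γδ− DN3b. Less the ratio of the B barcodes, an alternative chosen after seeing the data, the medians were -0.28 for Lat-KO γδ− and 0.093 for Lat-KO γδint over WT DN3a, and -0.46 for γδ− DN4 over γδ− DN3b. Where no value above shows it, the cause was not tested. Among the 23 genes the counting half-width was at its widest for Eno3 (16.6%), Hk2 (15.4%), Slc2a1 (14.3%), Slc2a3 (12.8%) and Pfkm (11.4%).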

Other observations

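The serine branch, which leaves glycolysis at 3-phosphoglycerate and feeds nucleotide synthesis, had 4 of its 5 genes, Psat1, Psph, Shmt1 and Shmt2, at least 2-fold above WT DN3a in γδ− DN3b, γδ− DN4 and γδ+ DN3b, against 9.87%, 7.59% and 10.2% of all features. The list medians were 1.41, 1.55 and 1.14. Psat1, for the transaminase of the branch, was at 26.0 CPM in WT DN3a, 109.8 and 94.8 in γδ− DN3b and DN4, 99.6 and 42.3 in γδ+ DN3b and DN4, and 31.4 and 45.3 in Lat-KO γδ− and γδint. In γδ+ DN4 the list median was -0.41, with Psph at least 2-fold higher (against 8.88% of all features) and Shmt1 among the 2 genes that were lower (against 7.86%). In Lat-KO γδint it was 1.15, with Psph, Shmt1 and Shmt2 among the 4 genes past 2-fold upward, against 13.9%.

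The pentose phosphate list had 1 of 7 genes past 2-fold upward in γδ− DN3b over WT DN3a (against 9.87% of all features), Tkt, at 188 CPM in WT DN3a and 541 CPM in γδ− DN3b, with a median of 0.49. The 9 genes of pyruvate entry that reached the mean of 5 CPM had medians over WT DN3a of 0.03 to 0.67 in the other 6 libraries. None of them passed 2-fold there, where 3.38% to 13.9% of all features were called higher and 0.923% to 19.8% lower. Of 15 citrate cycle genes, 1 to 2 passed 2-fold upward in γδ− DN3b, γδ− DN4, γδ+ DN3b and Lat-KO γδint, among them Sdhb and Fh1, against 9.87%, 7.59%, 10.2% and 13.9% of all features in that order. Among genes of gluconeogenesis, Fbp1, for the enzyme that opposes phosphofructokinase, was at 3.82 CPM in WT DN3a, 0.136 to 1.14 CPM in the selected WT libraries, and 22.6 and 21.1 CPM in the Lat-KO γδ− and γδint libraries. Pck2, which makes phosphoenolpyruvate in mitochondria, was at 17.2 CPM in WT DN3a, 2.62 to 5.54 CPM in the selected WT libraries, and 36.2 and 27.6 CPM in the Lat-KO libraries. Of other isozymes and transporters, 4 of 13 genes reached 5 CPM, and Pgam2 was lower than in WT DN3a in all 4 selected WT libraries.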
